A study of Mus musculus with 22 samples.

Results

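Alveolar macrophages sorted 14 d after the induction of mutant surfactant protein C were compared with alveolar macrophages of control mice, by RNA sequencing of 3 and 4 libraries. The genes described are the protein-coding autosomal genes that reached a mean of 10 CPM (counts scaled to a fixed library total after adjustment by TMM, the trimmed mean of M values) in either group. They number 9109 of the 31134 genes with a count in the macrophage libraries. Of these, 7693 reached 10 CPM in both groups, 642 in control only and 774 at 14 d only. The genes in these latter classes had to differ in level for the rule to admit them, so the total counts are also given over the 7693. Counts of gene lists are not. A listed gene under 10 CPM in control was admitted only through its level at 14 d, so its direction was fixed by the rule.

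Adult C57BL/6 mice, homozygous for the SP-CI73T allele of the surfactant protein C gene, carried the allele in a form held down by a neomycin cassette. In the injury groups a single oral dose of tamoxifen activated a Flp-O(ER) recombinase, driven from the Rosa26 locus and therefore not limited to one cell type, which excised the cassette and raised mutant protein in alveolar type-2 cells. Control libraries are labelled untreated, and the study describes the control mice of its sequencing as SP-CI73T mice given oil, while its general methods also pool tamoxifen-treated mice that lacked Flp-O. Both groups carry the SP-CI73T allele. The series holds 22 libraries, of which 10 are of alveolar macrophages (4 control, 3 at 3 d, 3 at 14 d) and 12 of lung monocytes. The macrophages came from lavaged, perfused and collagenase-digested lungs, and the labels give their gate as SigF+CD11b-. Both sexes were used, and no label says whether a library is 1 mouse or a pool, so the p-values measure the spread between libraries.

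Alveolar macrophages live on the surface of the air spaces. Granulocyte-macrophage colony-stimulating factor (GM-CSF) and TGF-beta from the lung set their identity through the nuclear receptor PPAR-gamma. Their main metabolic task is to take up and break down surfactant lipid, so they express genes of lipid storage, cholesterol efflux and fatty acid oxidation at high level. After lung injury, macrophages with other expression programmes, among them the arginase and resistin-like genes of alternative activation and the matrix and growth-factor genes linked to fibrosis, are known to appear in the same compartment.

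The 14 d libraries were the smallest, with 4610720 to 6838893 counts against 14437070 to 17074863 in control and 10692871 to 15410838 at 3 d. They also carried more reads from genes that macrophages do not use. The 764 olfactory and vomeronasal receptor genes summed to 519 to 1015 CPM at 14 d and 18.5 to 151 CPM in control. A count of 3 corresponds to 0.378 to 0.507 CPM at 14 d and to 0.197 to 0.228 CPM in control. All 3 of the 14 d libraries held reads of Y-linked genes (433 to 966 counts) and few of Xist (8 to 32), whereas the control libraries held 0 to 3 and 2744 to 4444, so sex and group cannot be told apart. Genes of the sex chromosomes are not among the 9109. CPM values throughout carry TMM factors of 0.894 to 0.939 in control and 1.173 to 1.292 at 14 d, which lower the 14 d levels relative to control. On plain library totals 9033 of the 9109 genes reached the same 10 CPM. Principal component 1 carried 75.8% of the variance and the control and 14 d libraries lay at its ends.

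The label was checked against 23 alveolar macrophage markers, all of which passed 10 CPM in at least 1 group. Their summed level was 37630 to 42040 CPM in control and 26480 to 34300 CPM at 14 d. On plain library totals, without TMM factors, the sums overlapped, at 33700 to 38340 in control and 33420 to 39800 at 14 d. Chil3, which encodes a chitinase-like lectin, stood at 25180, 23430, 25350 and 21260 CPM in the control libraries and 20320, 25610 and 20640 CPM in the 14 d libraries. It made up most of the sum in every library, so the overlap of the sums does not describe the other markers. Of the 23 markers, 14 were lower at 14 d under all 4 scalings used below, plain library sizes among them. Siglecf, the gene of the sorted surface lectin, stood at 348, 231, 305 and 332 CPM in the control libraries and 119.7, 127 and 90.1 CPM in the 14 d libraries. Marker genes of T and natural killer cells, none of which reached 10 CPM, summed to 17.9 to 62.0 CPM in control and 22.3 to 36.9 CPM at 14 d. In bulk libraries, fewer cells of a type and less RNA per cell cannot be told apart.

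Between control and 14 d, 1116 of the 9109 genes (12.3%) were higher and 3792 (41.6%) were lower by edgeR's quasi-likelihood test at an adjusted p under 0.05 and a fold change above 1.5. Among all 20944 genes tested, many at low level, 39.4% were higher and 22.9% were lower. The split between directions depended on how the libraries were scaled. With TMM normalization, which was the planned scaling, the median log2 fold change of the 9109 genes was -0.47, and over all genes tested it was 0.175. With TMM factors taken only from genes whose average log2 CPM exceeded 5, the median of the 9109 was 0.0969, and 2245 were higher and 940 lower. With library sizes alone 1864 were higher and 1379 lower, and with upper quartiles 1652 and 1728.

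**Figure D1:**
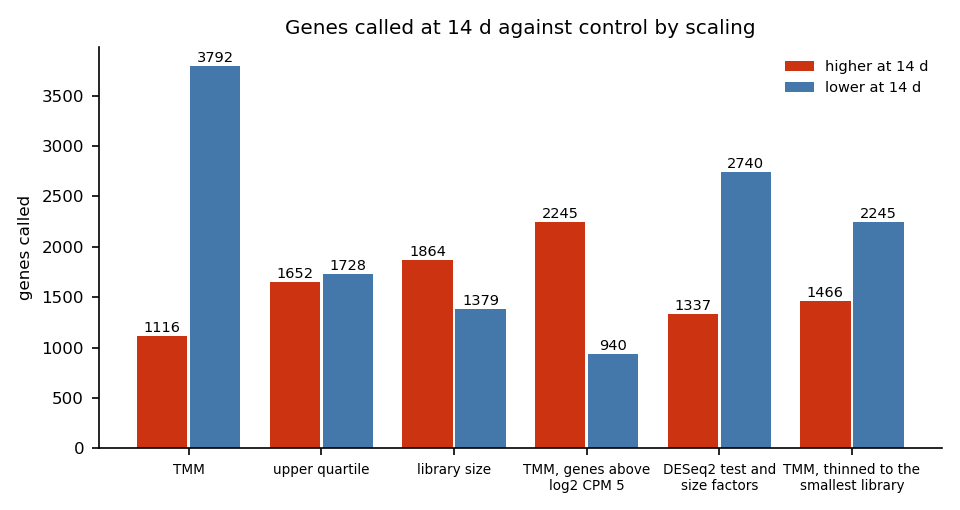
Number of the 9109 genes (y axis) called higher (red bars) and lower (blue bars) at 14 d than in control, under TMM, upper quartiles, library sizes, TMM from abundant genes, DESeq2, and TMM on thinned libraries. Under these 6 settings the lower calls range from 940 to 3792 and the higher calls from 1116 to 2245.

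For this reason a gene is said below to have risen or fallen only where it was called in the same direction under all 4 scalings, a rule chosen after the data had been seen. TMM gave the fewest higher calls of the 4 scalings and lost none of them, so the rule is no further check on the rises. For falls it kept as many genes as the scaling with the fewest lower calls. By that rule 1116 genes rose (12.3%) and 940 fell (10.3%), against 39.4% and 5.90% of all genes tested. The counts of gene lists below are to be read beside the shares of 12.3% and 10.3%. In every list, a counted gene with a mean under 10 CPM in control had to be higher at 14 d, also where this is not repeated. Among the 7693 genes at 10 CPM in both groups 425 rose (5.52%) and 737 fell (9.58%). Leaving out 1 library at a time gave 924 to 1120 that rose and 791 to 1080 that fell. The 4 control libraries and the 3 libraries at 14 d did not overlap for 1992 of the genes that rose or fell, and on plain library totals for 2039 of the 2056. Such separation was common, since 6491 of all 9109 genes did not overlap. For a single gene, the exact permutation test of 4 against 3 libraries cannot give a two-sided p below 0.057, so the p-values quoted are edgeR's, adjusted by Benjamini-Hochberg over all genes tested. Log2 fold changes are those of the TMM fit, with the standard error (SE) after the sign ±. Genes called under TMM but not under all 4 scalings are given by their values. Where leaving out 1 library moved the count of a gene list by more than 1.5 times, the count without the library that moved it most follows in brackets.

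**Figure D2:**
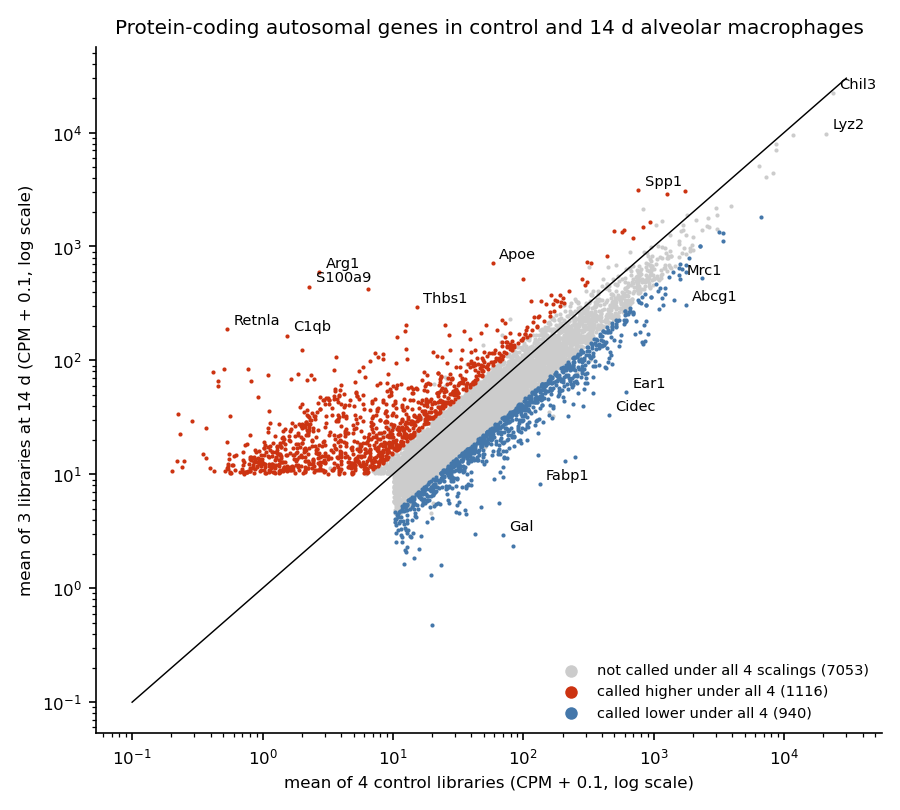
Mean CPM plus 0.1 of each of the 9109 genes in control (x axis, n = 4) and at 14 d (y axis, n = 3), both on log scales, with the line of equal level. Red points are the 1116 genes that rose and blue points the 940 that fell under all 4 scalings.

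Genes of alternative activation, the macrophage state linked to interleukin-4 and interleukin-13, held some of the largest rises. Of 22 such genes 8 rose and 2 fell (4 without 14 d replicate 1), with a median log2 fold change of -0.05 under TMM and 0.51 with factors from the abundant genes, so its sign turned with the scaling. Among those that rose, Retnla, Arg1, Ccl24, Mgl2 and Alox15 passed 10 CPM only through the 14 d group, so they had to be higher there. Retnla (chr16:48842551-48844461), which encodes the secreted resistin-like molecule alpha, was measured at 0.342, 0.608, 0.197 and 0.598 CPM in the control libraries and 242, 40.2 and 284 CPM in the 14 d libraries. Its reads numbered 25 over the control libraries and 3685 over the 14 d libraries, a pooled ratio of 412 (95% counting interval 278 to 637). For Retnla the log2 fold change was 8.74 ± 1.35 SE, with an edgeR adjusted p of 0.000843. All 3 of the 14 d libraries lay above every control library, although replicate 2 held far less Retnla than replicates 1 and 3. Arg1 (chr10:24915221-24927484), which encodes the urea-cycle enzyme arginase 1, was at 1.71, 5.47, 1.77 and 1.53 CPM in the control libraries and 821, 297 and 676 CPM in the 14 d libraries. For Arg1 the log2 fold change was 7.85 ± 0.91 SE, with an edgeR adjusted p of 0.00018. The groups did not overlap, and replicate 2 was again the lowest of the 14 d libraries. The eosinophil chemokine Ccl24 was at 0.0685, 0.228, 0 and 0.199 CPM in the control libraries and 64.8, 4.54 and 32.8 CPM in the 14 d libraries. Summed over the libraries these were 7 and 680 reads of Ccl24, a ratio of 271 (131 to 677).

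Ccl17, which encodes a ligand of the chemokine receptor CCR4, was at 8.49 to 17.96 CPM in control and 26.5 to 63.9 CPM at 14 d (log2 fold change 1.95, adjusted p = 0.00597). The lectin gene Mgl2 stood at 0.304 to 1.59 CPM in control and 6.805 to 22.6 CPM at 14 d (log2 fold change 3.88, adjusted p = 0.00158). Ccl22, the neighbour of Ccl17 in the genome, was at 27.1, 18.5, 23.5 and 34.6 CPM in the control libraries and 54.7, 131 and 18.4 CPM in the 14 d libraries and was not called (log2 fold change 1.396, adjusted p = 0.0522), with 1 of the 14 d libraries below every control library and the other two above. Of the genes that fell, Mrc1, which encodes the mannose receptor often used as a mark of this state, was at 1445, 1492, 1607 and 1852 CPM in the control libraries and 511, 636 and 401 CPM in the 14 d libraries (log2 fold change -1.63 ± 0.18 SE, edgeR adjusted p = 3.63e-06), and the other was Flt1. Chil3 is also in the list, and it was not called (log2 fold change -0.10, adjusted p = 0.722), although on plain library totals all 14 d libraries lay above the control libraries.

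The promoter windows of 2 of the genes that rose held a palindrome of the kind bound by STAT6, the transcription factor activated by interleukin-4 (TTC and GAA with any 4 bases between, searched on both strands in 250 bases before the RefSeq start, GRCm38.p6). They are printed with the match in capitals.
Retnla (chr16:48842444-48842493, plus strand): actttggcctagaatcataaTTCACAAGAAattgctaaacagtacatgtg
Ccl17 (chr8:94810279-94810328, plus strand): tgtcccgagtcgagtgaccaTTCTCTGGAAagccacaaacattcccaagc
The match lies 145 to 136 bases before the start of Retnla and 154 to 145 bases before that of Ccl17. Of the 14 alternative activation genes with a RefSeq promoter 2 held a match (14.3%), against 5.85% of all 32851 promoters. A match describes the letters only.

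Of 32 genes that fibrosis studies have linked to macrophages, 17 rose (11 without control replicate 4) and 4 fell (2 without control replicate 1). The median log2 fold change was 0.73 under TMM and 1.3 with factors from the abundant genes. Apoe (chr7:19696109-19699188), which encodes the lipid carrier apolipoprotein E, was at 50.7, 57.2, 79.6 and 46.9 CPM in the control libraries and 772, 443 and 933 CPM in the 14 d libraries. For Apoe the log2 fold change was 3.61 ± 0.26 SE, with an edgeR adjusted p of 5.87e-07. Thbs1, which encodes the matrix glycoprotein thrombospondin 1, an activator of latent TGF-beta, was at 19.4, 19.5, 12.2 and 9.96 CPM in the control libraries and 282, 176 and 428 CPM in the 14 d libraries. For Thbs1 the log2 fold change was 4.28 ± 0.37 SE, with an edgeR adjusted p of 7.09e-06. For both genes the lowest 14 d library stood well above the highest control library. Spp1 (chr5:104435118-104441050), the gene of osteopontin, was at 369, 1760, 502 and 421 CPM in the control libraries and 3325, 3300 and 2710 CPM in the 14 d libraries. For Spp1 the log2 fold change was 2.03 ± 0.66 SE, with an edgeR adjusted p of 0.0245. The groups did not overlap, but control replicate 2 stood far above the other control libraries. The Spp1 call was lost in 6 of 10 fits that left out a library, with adjusted p from 0.000209 to 0.0646 (without control replicate 3 or 4, 3 d replicate 1, or any of the 14 d replicates). Part of Spp1 overlaps an annotated transcript on the same strand.

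Several secreted factors of the list were among the genes that rose. Vegfa, Pdgfa and Hbegf passed 10 CPM only through the 14 d group, so they had to be higher there. Mfge8, which encodes a bridging protein for dying cells, was at 14.9 to 37.5 CPM in control and 161 to 285 CPM at 14 d (log2 fold change 3.06, adjusted p = 0.000376). Igf1, the gene of insulin-like growth factor 1, was at 16.9 to 46.1 CPM in control and 89.6 to 101 CPM at 14 d (log2 fold change 1.86, adjusted p = 0.00332). Vegfa, which encodes the main endothelial growth factor, was at 1.57 to 2.66 CPM in control and 18.9 to 41.6 CPM at 14 d (log2 fold change 3.71, adjusted p = 7.22e-07). Those 3 genes were higher in every 14 d library than in any control library. Pdgfa, which encodes a mitogen for fibroblasts, was at 0.398 to 1.597 CPM in control and 5.17 to 16.9 CPM at 14 d (log2 fold change 3.78, adjusted p = 1.78e-05). Hbegf, the gene of an epidermal growth factor receptor ligand, was at 0.262 to 1.14 CPM in control and 9.13 to 12.96 CPM at 14 d (log2 fold change 4.03, adjusted p = 0.000372). Fn1, which encodes fibronectin, was already abundant, at 1290, 2347, 1567 and 1809 CPM in the control libraries and 2983, 3370 and 2818 CPM in the 14 d libraries. For Fn1 the log2 fold change was 0.80 ± 0.18 SE, with an edgeR adjusted p of 0.00129. Genes of the list that fell included the tetraspanin gene Cd9, at 3286 to 3626 CPM in control and 764 to 1467 CPM at 14 d (log2 fold change -1.61, adjusted p = 8.95e-06), and the glycoprotein gene Gpnmb, at 346 to 596 CPM in control and 121 to 191 CPM at 14 d (log2 fold change -1.55, adjusted p = 0.00308). Lgals3, which encodes galectin-3, was at 1529 to 1855 CPM in control and 935 to 1010 CPM at 14 d and Tgfb1, the gene of TGF-beta 1, at 550.5 to 628 CPM in control and 344 to 457 CPM at 14 d. Both were called lower under TMM but not under all 4 scalings, and the Tgfb1 call was lost without control replicate 3.

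**Figure D3:**
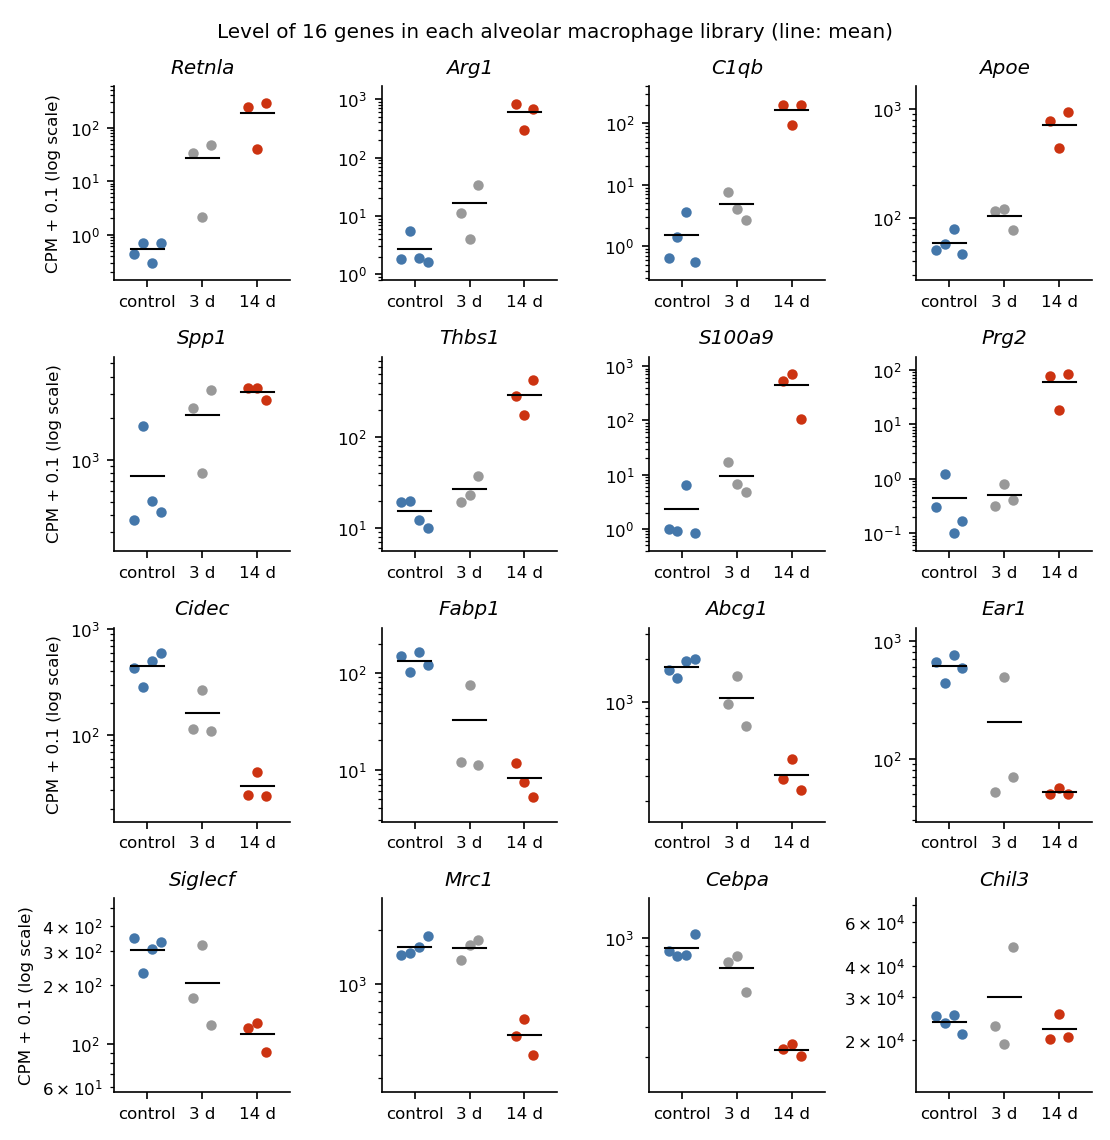
CPM plus 0.1 (log scale) of 16 genes in each alveolar macrophage library (4 control, 3 at 3 d, 3 at 14 d), with a line at each group mean. The 14 d points lie above the control points for Retnla, Arg1, C1qb, Apoe, Spp1, Thbs1, S100a9 and Prg2, below them for Cidec, Fabp1, Abcg1, Ear1, Siglecf, Mrc1 and Cebpa, and among them for Chil3 (above them on plain library totals).

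Fibroblast transcripts moved the same way. The 3 fibroblast marker genes at 10 CPM all rose, and the 6 of the list summed to 16.5 to 22.7 CPM in control and 155 to 339 CPM at 14 d. Col1a1 and Col1a2 passed 10 CPM only through the 14 d group, so they had to be higher there. Col3a1, which encodes the chain of type III collagen, was at 16.02, 12.9, 8.98 and 11.4 CPM in the control libraries and 167, 102 and 277 CPM in the 14 d libraries. For Col3a1 the log2 fold change was 3.88 ± 0.41 SE, with an edgeR adjusted p of 3.63e-05. Col1a1 and Col1a2, the genes of the type I collagen chains, were at 0.912 to 1.86 CPM in control and 16.3 to 31.9 CPM at 14 d and at 1.06 to 1.99 CPM in control and 11.2 to 11.96 CPM at 14 d. The defining fibroblast genes Dcn, Lum and Pdgfra stayed under 10 CPM in both groups, and they rose as well. Such rises were common, since 39.4% of all genes tested, many at low level, rose. Lum had 24 reads in control and 116 at 14 d (pooled ratio 13.5, 95% counting interval 8.64 to 21.9), Pdgfra had 47 and 161 reads, and Dcn had 116 and 106 reads from the smaller 14 d libraries (log2 fold change 1.35, adjusted p = 0.0271). The part of these transcripts in the fibrosis-associated genes was not tested.

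The 3 genes of complement C1q, the recognition protein of the classical pathway and a product of tissue macrophages, rose together. C1qa (chr4:136895917-136898803) was at 0.411, 2.21, 3.998 and 0.996 CPM in the control libraries and 154, 60.99 and 157 CPM in the 14 d libraries. For C1qa the log2 fold change was 6.01 ± 0.67 SE, with an edgeR adjusted p of 0.000108. C1qb (chr4:136880129-136886187) was at 0.548, 1.29, 3.47 and 0.465 CPM in the control libraries and 199, 94.3 and 202 CPM in the 14 d libraries. For C1qb the log2 fold change was 6.81 ± 0.66 SE, with an edgeR adjusted p of 4.93e-05. C1qc (chr4:136889804-136893065) was at 0.411, 0.456, 1.44 and 0.398 CPM in the control libraries and 99.1, 48.1 and 104 CPM in the 14 d libraries. For C1qc the log2 fold change was 6.91 ± 0.41 SE, with an edgeR adjusted p of 2.84e-07. In each of the 3 genes, replicate 2 was the lowest of the 14 d libraries and still above all controls. Over 16 complement genes 6 rose and 1 fell (2 without 3 d replicate 2). The 3 C1q genes and C3ar1 passed 10 CPM only through the 14 d group, so they had to be higher there. C3ar1, which encodes the receptor of the C3a fragment, was at 0.459 to 2.28 CPM in control and 21.1 to 45.3 CPM at 14 d (log2 fold change 5.15, adjusted p = 3.2e-06). The gene that fell was Cd93, once described as a C1q receptor, at 55.4 to 129 CPM in control and 16.9 to 26.04 CPM at 14 d (log2 fold change -2.01, adjusted p = 0.000107).

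C1q is also the hallmark of interstitial and monocyte-derived macrophages. Of 12 markers of those cells 7 rose and none fell. C1qa, C1qb, C1qc and Maf passed 10 CPM only through the 14 d group, so they had to be higher there. Maf, which encodes a transcription factor, was at 1.33 to 3.19 CPM in control and 10.6 to 33.9 CPM at 14 d (log2 fold change 3.09, adjusted p = 2.15e-05). Stab1, a scavenger receptor gene outside that list, was at 0.912 to 1.83 CPM in control and 15.5 to 37.9 CPM at 14 d (log2 fold change 4.45, adjusted p = 3.92e-07). The 18 listed genes summed to 1318 to 5010 CPM in control and 3510 to 4296 CPM at 14 d, so the sums overlapped. The list includes Cd74 and H2-Ab1, whose levels are given below. These genes made up much of the control sums and varied among the control libraries. Cd163, Folr2, Lyve1, Pf4, Tmem119 and Cx3cr1 were under 10 CPM in both groups. Of these, Folr2 rose with 10 reads in control and 53 at 14 d (pooled ratio 14.8, 95% counting interval 7.45 to 32.6), Tmem119 with 14 and 57 reads (11.4, 6.26 to 22.1), and Cx3cr1 with 80 and 146 reads. Cd163, Lyve1 and Pf4 were not called. Rises at such low level were common, since 39.4% of all genes tested rose. Of 10 classical monocyte markers 5 rose and 1 fell. Itgam and F13a1 passed 10 CPM only through the 14 d group, so they had to be higher there. Ly6c2, Vcan, Ms4a4c and Cx3cr1 of that list were under 10 CPM in both groups. All genes of the list summed to 1627 to 2700 CPM in control and 3206 to 3945 CPM at 14 d. Fn1, described above as already abundant in control, made up most of the sum in every library. Ccr2, the receptor that draws monocytes out of the marrow, was at 13.2 to 25.1 CPM in control and 35.8 to 88.01 CPM at 14 d (log2 fold change 1.57, adjusted p = 0.0056), and F13a1, which encodes a coagulation factor subunit, was at 0.199 to 0.852 CPM in control and 8.95 to 24.3 CPM at 14 d (log2 fold change 4.82, adjusted p = 1.8e-06). Itgam (chr7:128062640-128118491), which encodes the CD11b chain that the gate excluded from the cell surface, was at 2.33, 2.66, 1.31 and 0.7303 CPM in the control libraries and 102, 54.95 and 71.5 CPM in the 14 d libraries. For Itgam the log2 fold change was 5.45 ± 0.57 SE, with an edgeR adjusted p of 4.42e-05. The part of such cells in the changes at 14 d was not tested.

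Granulocyte genes were among those with the largest fold changes. S100a9 (chr3:90692632-90695721), which with S100a8 makes up calprotectin of neutrophils and monocytes, was at 0.8901, 0.836, 6.29 and 0.7303 CPM in the control libraries and 522, 706 and 104 CPM in the 14 d libraries. For S100a9 the log2 fold change was 7.64 ± 1.08 SE, with an edgeR adjusted p of 0.000552. S100a8 was at 5.68, 7.68, 7.01 and 4.85 CPM in the control libraries and 514, 663 and 105 CPM in the 14 d libraries. For S100a8 the log2 fold change was 6.08 ± 0.71 SE, with an edgeR adjusted p of 0.000167. For both genes 14 d replicate 3 was the lowest of its group and stood above every control library. Retnlg, the resistin-like gene of neutrophils, was at 0.205, 0.152, 0.655 and 0.266 CPM in the control libraries and 78.2, 30.1 and 128 CPM in the 14 d libraries. For Retnlg the log2 fold change was 7.86 ± 0.60 SE, with an edgeR adjusted p of 3.79e-06. Summed over the libraries these were 19 and 1536 reads of Retnlg, a ratio of 226 (144 to 376). Cd177, which encodes a neutrophil surface glycoprotein, was at 0.137, 0.3801, 0.655 and 0.266 CPM in the control libraries and 71.9, 103 and 21.8 CPM in the 14 d libraries. For Cd177 the log2 fold change was 7.47 ± 0.94 SE, with an edgeR adjusted p of 0.000224. Summed over the libraries these were 21 and 1448 reads of Cd177, a ratio of 193 (126 to 312). Il1r2, the decoy receptor of interleukin-1, was at 0.205, 0.608, 1.44 and 0.598 CPM in the control libraries and 63.7, 109 and 23.5 CPM in the 14 d libraries. For Il1r2 the log2 fold change was 6.49 ± 0.61 SE, with an edgeR adjusted p of 1.58e-05.

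Of 9 neutrophil markers at 10 CPM 8 rose and 1 fell. S100a8, S100a9, Retnlg, Mmp9, Cxcr2 and Lcn2 passed 10 CPM only through the 14 d group, so they had to be higher there. The 14 listed genes summed to 117 to 237 CPM in control and 470 to 1801 CPM at 14 d. Cxcr2, the receptor for neutrophil chemokines, was at 6.04 to 8.13 CPM in control and 22.3 to 80.4 CPM at 14 d (log2 fold change 3.02, adjusted p = 9.73e-05) and Lcn2, which encodes the iron-siderophore binder lipocalin 2, was at 0.598 to 3.04 CPM in control and 7.61 to 30.5 CPM at 14 d (log2 fold change 3.31, adjusted p = 0.00116). Mmp8, the gene of neutrophil collagenase, fell and was at 53.7 to 195 CPM in control and 15.7 to 21.9 CPM at 14 d (log2 fold change -2.43, adjusted p = 0.000516). Camp, Mpo, Ngp, Ly6g and Elane did not reach 10 CPM. Elane, which encodes neutrophil elastase, had 0 reads in all 4 control libraries and 33 in the 14 d libraries, which is at least 30.7-fold higher when the control group is given 3 counts.

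Eosinophils carry the same sialic acid-binding lectin as alveolar macrophages, so their markers were examined as well. Prg2 (chr2:84980461-84983632), which encodes the major basic protein of eosinophil granules, was at 0.205, 1.14, 0 and 0.0664 CPM in the control libraries and 77.3, 18.5 and 82.8 CPM in the 14 d libraries. For Prg2 the log2 fold change was 7.44 ± 0.86 SE, with an edgeR adjusted p of 0.000102. Summed over the libraries these were 19 and 1174 reads of Prg2, a ratio of 173 (110 to 288). Alox15, the 15-lipoxygenase gene, which both eosinophils and alternatively activated macrophages can express, was at 0.0685, 0.456, 1.11 and 0 CPM in the control libraries and 87.6, 27.9 and 135 CPM in the 14 d libraries. For Alox15 the log2 fold change was 7.62 ± 0.85 SE, with an edgeR adjusted p of 0.000109. Of 6 eosinophil markers at 10 CPM 5 rose and none fell, and the 8 listed genes summed to 164 to 247 CPM in control and 501 to 697 CPM at 14 d. Prg2, Alox15, Ccr3 and Cebpe passed 10 CPM only through the 14 d group, so they had to be higher there. They made up little of the control sum, which came mostly from other genes of the list. Ccr3, the receptor of Ccl24, was at 0 to 0.328 CPM in control and 4.92 to 18.1 CPM at 14 d (log2 fold change 6.302, adjusted p = 3.15e-05). Epx, the peroxidase gene that defines the cells, stayed under 10 CPM, with 2 reads in control and 37 at 14 d (ratio 51.7, 95% counting interval 13.3 to 443). Il5ra, also in the list, stayed under 10 CPM in both groups as well. Cebpe, which encodes a factor of granulocyte development, was at 0 to 0.205 CPM in control and 10.6 to 29.9 CPM at 14 d (log2 fold change 7.24, adjusted p = 3.16e-07). The labelled gate takes CD11b- cells, whereas the study's methods define eosinophils as CD11b+ and neutrophils by Ly6G. The part of granulocytes in the genes of these paragraphs was not tested.

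**Figure D4:**
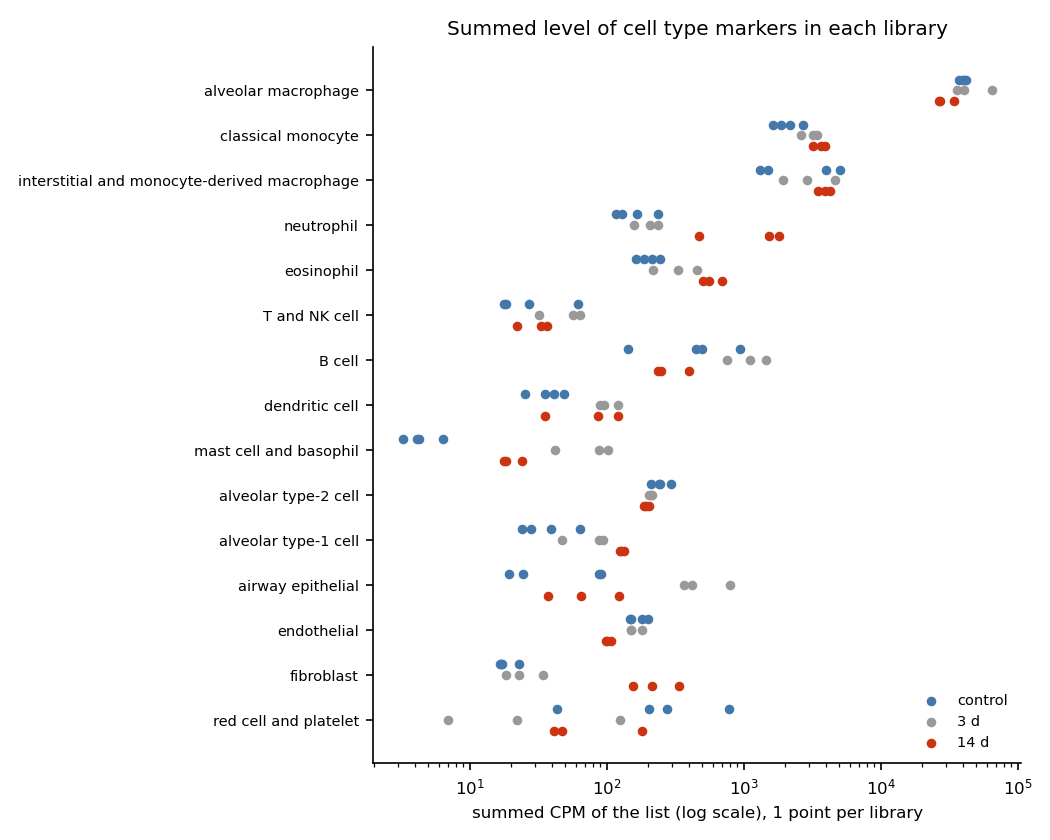
Summed CPM (log scale) of each marker list in the alveolar macrophage libraries, by group (control, 3 d and 14 d), 1 point per library. Neutrophil, eosinophil and fibroblast sums are higher at 14 d than in any control library, and alveolar macrophage sums are lower, although the latter overlap with control on plain library totals (33420 to 39800 against 33700 to 38340). Chil3 makes up most of the alveolar macrophage sum in every library.

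Of 3 dendritic cell markers at 10 CPM 2 rose (1 without control replicate 1) and none fell, and the 8 listed summed to 25.5 to 49.1 CPM in control and 35.7 to 120 CPM at 14 d. The 1 mast cell and basophil marker at 10 CPM rose (sums of 3.25 to 6.44 and 17.9 to 24.1 CPM). Of 3 alveolar type-1 cell markers 2 rose and none fell, Ager (receptor for glycation end products) among them at 2.28 to 5.05 CPM in control and 24.2 to 39.05 CPM at 14 d (log2 fold change 3.03, adjusted p = 1.41e-06). Of 4 type-2 cell markers 1 rose (0 without 3 d replicate 1) and none fell (1 without control replicate 2), and Sftpc, the gene mutated in the model, was at 38.5, 36.8, 39.3 and 36.5 CPM in the control libraries and 16.4, 19.8 and 27.9 CPM in the 14 d libraries in these macrophages, lower under TMM but not under all 4 scalings (log2 fold change -0.83, adjusted p = 0.00313). Of 3 endothelial markers 1 rose and 2 fell (1 without control replicate 4). Of 6 B cell markers none rose and 1 fell (0 without 14 d replicate 1), and of the airway and red cell markers none did either.

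Cytokine and chemokine genes changed in both directions. Of 21 genes of inflammatory cytokines and the inflammasome 8 rose and 5 fell (3 without 14 d replicate 3). Csf1, which encodes the growth factor of macrophages themselves, was at 3.56, 5.63, 2.95 and 2.06 CPM in the control libraries and 139, 132 and 52.2 CPM in the 14 d libraries. For Csf1 the log2 fold change was 4.94 ± 0.51 SE, with an edgeR adjusted p of 4.32e-05. Il1rl1, which encodes the interleukin-33 receptor ST2, was at 0.456 to 1.25 CPM in control and 9.704 to 15.8 CPM at 14 d (log2 fold change 4.08, adjusted p = 1.85e-06). Nfkbia, the inhibitor of NF-kappa-B and its target, was at 131 to 185 CPM in control and 293 to 493 CPM at 14 d (log2 fold change 1.21, adjusted p = 0.000143). Il1b was at 68.6, 250.2, 36.4 and 45.2 CPM in the control libraries and 643, 754 and 165 CPM in the 14 d libraries with overlapping groups (log2 fold change 2.38 ± 0.81 SE, edgeR adjusted p = 0.0313). The Il1b call was lost in 8 of 10 fits that left out a library (adjusted p from 0.00144 to 0.0969) and was kept without control replicate 2 or 14 d replicate 3. Tnf was at 46.8 to 97.8 CPM in control and 12.5 to 81.7 CPM at 14 d and was not called (log2 fold change -0.49, adjusted p = 0.585).

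Genes of the inflammasome, which makes mature interleukin-1 and interleukin-18, were among those that fell. Il18, the cytokine gene, was at 314, 295, 294 and 282 CPM in the control libraries and 74.5, 115 and 40.1 CPM in the 14 d libraries. For Il18 the log2 fold change was -1.95 ± 0.27 SE, with an edgeR adjusted p of 4.33e-05. Casp1, which encodes the protease that cleaves it, was at 80.8 to 96.3 CPM in control and 22.1 to 51.7 CPM at 14 d (log2 fold change -1.23, adjusted p = 0.000151), and the sensor gene Nlrc4 was at 31.6 to 37.6 CPM in control and 7.61 to 13.4 CPM at 14 d (log2 fold change -1.62, adjusted p = 5.93e-05). The oncostatin M gene Osm was at 156 to 337 CPM in control and 63.7 to 105 CPM at 14 d (log2 fold change -1.43, adjusted p = 0.000503).

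Of 13 chemokine ligand genes 4 rose and 3 fell. Besides Ccl17 and Ccl24 these were Ccl8, at 0 to 0.304 CPM in control and 4.54 to 21.6 CPM at 14 d (log2 fold change 6.27, adjusted p = 4.44e-05), and Cxcl16, at 10.6 to 28.97 CPM in control and 50.4 to 68.3 CPM at 14 d (log2 fold change 1.75, adjusted p = 0.000151). Among those that fell, Ccl6 is one of the most abundant messages of the cell, at 4528, 9110, 7174 and 5836 CPM in the control libraries and 1781, 1852 and 1816 CPM in the 14 d libraries. For Ccl6 the log2 fold change was -1.88 ± 0.24 SE, with an edgeR adjusted p of 1.48e-05. Ccl3 was at 67.4 to 145 CPM in control and 26.2 to 39.6 CPM at 14 d (log2 fold change -1.61, adjusted p = 2.54e-05) and Cx3cl1, the gene of fractalkine, was at 52.3 to 82.2 CPM in control and 12.5 to 16.3 CPM at 14 d (log2 fold change -2.31, adjusted p = 1.61e-06). Of 11 chemokine receptor genes 6 rose and 1 fell (0 without 14 d replicate 3). Those that rose included Ccr2, Ccr3 and Cxcr2 above and Ccrl2, an atypical receptor gene, at 31 to 48.4 CPM in control and 73.5 to 232 CPM at 14 d (log2 fold change 1.996, adjusted p = 0.00884). Cxcr1 fell and was at 10.2 to 19.9 CPM in control and 2.198 to 3.65 CPM at 14 d (log2 fold change -2.53, adjusted p = 0.0014).

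Of 16 genes of eicosanoid synthesis 5 rose and 4 fell. Ptgs2, Pla2g7 and Alox15 passed 10 CPM only through the 14 d group, so they had to be higher there. The cyclooxygenase genes rose. Ptgs2, the inducible enzyme, was at 2.19, 3.88, 1.97 and 1.06 CPM in the control libraries and 95.8, 103 and 25.5 CPM in the 14 d libraries (log2 fold change 5.05 ± 0.56 SE, edgeR adjusted p = 6.49e-05) and Ptgs1, the constitutive enzyme, was at 7.63 to 36.2 CPM in control and 46.5 to 96.8 CPM at 14 d (log2 fold change 2.19, adjusted p = 0.00445). Pla2g7, the gene of platelet-activating factor acetylhydrolase, was at 1.39 to 3.54 CPM in control and 43.2 to 91.5 CPM at 14 d (log2 fold change 4.84, adjusted p = 2.21e-07). Genes of leukotriene synthesis were among those that fell. Alox5, the 5-lipoxygenase gene, was at 391 to 511 CPM in control and 116 to 239 CPM at 14 d (log2 fold change -1.34, adjusted p = 0.000116) and Ltc4s, the leukotriene C4 synthase gene, at 289 to 327 CPM in control and 67.96 to 95.02 CPM at 14 d (log2 fold change -2.002, adjusted p = 5.99e-07). Pla2g15, which encodes a lysosomal phospholipase that acts on surfactant phospholipid, was at 733 to 845 CPM in control and 156 to 203 CPM at 14 d (log2 fold change -2.15, adjusted p = 3.92e-07).

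Of 20 genes of matrix proteases and their inhibitors 7 rose and 4 fell. Mmp9, Adam8, Adam19 and Serpinb2 passed 10 CPM only through the 14 d group, so they had to be higher there. Mmp9, the gelatinase B gene, was at 0.548, 0.532, 2.75 and 0.199 CPM in the control libraries and 112, 80.5 and 32.5 CPM in the 14 d libraries. For Mmp9 the log2 fold change was 6.18 ± 0.74 SE, with an edgeR adjusted p of 0.000149. Mmp14, which encodes a membrane-bound collagenase, was at 3.35 to 23.3 CPM in control and 39.5 to 63.5 CPM at 14 d (log2 fold change 2.604, adjusted p = 0.00673). The membrane-bound sheddase genes rose, Adam8 at 2.13 to 4.33 CPM in control and 41.8 to 118 CPM at 14 d (log2 fold change 4.57, adjusted p = 1.58e-06) and Adam19 at 2.92 to 5.05 CPM in control and 39.8 to 63.6 CPM at 14 d (log2 fold change 3.82, adjusted p = 7.46e-08). Serpinb2, which encodes an inhibitor of plasminogen activators, was at 0.07603 to 0.137 CPM in control and 4.54 to 20.6 CPM at 14 d (log2 fold change 6.63, adjusted p = 2.73e-06). Fallen genes included Slpi, the secretory leukocyte protease inhibitor, at 220.4 to 367 CPM in control and 60.1 to 66.6 CPM at 14 d (log2 fold change -2.23, adjusted p = 5.93e-07), and Plaur, the urokinase receptor, at 430.1 to 566 CPM in control and 157 to 219 CPM at 14 d (log2 fold change -1.37, adjusted p = 1.18e-05).

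Of the 23 genes that define alveolar macrophages 1 rose (0 without control replicate 1) and 14 fell, and the median log2 fold change was -1.42 under TMM and -0.85 with factors from the abundant genes. Krt79, a keratin gene used as a marker of these cells, was at 748, 647, 1008 and 882 CPM in the control libraries and 115, 136 and 166 CPM in the 14 d libraries. For Krt79 the log2 fold change was -2.56 ± 0.19 SE, with an edgeR adjusted p of 3.21e-07. Cd2, an adhesion receptor gene, was at 364 to 397 CPM in control and 80.3 to 109 CPM at 14 d (log2 fold change -2.07, adjusted p = 2.84e-07). Siglecf, whose levels are given above, also fell (log2 fold change -1.43, adjusted p = 0.000657). Plet1 was at 1046 to 1294 CPM in control and 264 to 388 CPM at 14 d (log2 fold change -1.94, adjusted p = 1.27e-06), and Mertk, which encodes a receptor for dying cells, was at 242 to 313 CPM in control and 76.2 to 105 CPM at 14 d (log2 fold change -1.66, adjusted p = 0.00022). The 14 d libraries lay below all control libraries for each of these 5 genes. Ear1 and Ear2, genes of the eosinophil-associated ribonuclease family that alveolar macrophages express at high level, were at 664, 439, 758 and 589 CPM in the control libraries and 50.1, 56.1 and 50.5 CPM in the 14 d libraries (log2 fold change -3.55 ± 0.84 SE, edgeR adjusted p = 0.00633) and at 1826 to 2745 CPM in control and 473 to 576 CPM at 14 d (log2 fold change -2.14, adjusted p = 0.00251). These near-identical copies can share reads.

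Other markers were not called, or not under every scaling. Car4 (carbonic anhydrase 4) was at 607 to 2016 CPM in control and 497 to 807 CPM at 14 d and Marco (a scavenger receptor) at 541 to 848 CPM in control and 308 to 732 CPM at 14 d, and neither was called. Itgax, the gene of the CD11c chain, was at 942 to 1158 CPM in control and 496 to 598 CPM at 14 d, Fabp4 (a fatty acid carrier) at 122 to 137 CPM in control and 63.9 to 90.4 CPM at 14 d and Lpl (lipoprotein lipase) at 2239 to 2992 CPM in control and 1112 to 1968 CPM at 14 d, each lower under TMM but not under all 4 scalings. The 1 marker that rose was Ctsk, the cathepsin K gene, at 563 to 946 CPM in control and 954 to 1423 CPM at 14 d (log2 fold change 0.79, adjusted p = 0.0446), and its call was lost in 8 of 10 fits that left out a library.

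Of 24 transcription factor and receptor genes of alveolar macrophage development 4 rose and 9 fell. Pparg (chr6:115360951-115490399), which encodes PPAR-gamma, was at 240.4, 180, 248 and 293 CPM in the control libraries and 104, 94.4 and 116 CPM in the 14 d libraries. For Pparg the log2 fold change was -1.197 ± 0.17 SE, with an edgeR adjusted p of 2.9e-05. Cebpa (chr7:35119293-35121928), which encodes the factor C/EBP-alpha, was at 844, 790, 802 and 1055 CPM in the control libraries and 225, 239.8 and 203 CPM in the 14 d libraries. For Cebpa the log2 fold change was -1.97 ± 0.18 SE, with an edgeR adjusted p of 1.15e-06. Tgfbr2, the receptor chain that binds TGF-beta, was at 510.5, 465, 493 and 529 CPM in the control libraries and 155, 180.1 and 115 CPM in the 14 d libraries. For Tgfbr2 the log2 fold change was -1.73 ± 0.18 SE, with an edgeR adjusted p of 3.28e-06. None of these 3 genes overlapped between the groups. Egr2, a zinc-finger factor, was at 144 to 235 CPM in control and 44.6 to 61.5 CPM at 14 d (log2 fold change -1.83, adjusted p = 4.35e-06). Bhlhe41, which restrains proliferation of alveolar macrophages, was at 122 to 193 CPM in control and 56.1 to 78.6 CPM at 14 d (log2 fold change -1.22, adjusted p = 8.2e-05), and Runx1 was at 211 to 275 CPM in control and 75.7 to 98.3 CPM at 14 d (log2 fold change -1.51, adjusted p = 5.11e-05) whereas Runx3 rose from low level, at 1.261 to 3.497 CPM in control and 9.33 to 14.4 CPM at 14 d (log2 fold change 2.29, adjusted p = 3.24e-05). Of the GM-CSF receptor chains, Csf2ra was at 293 to 372 CPM in control and 188 to 271 CPM at 14 d and was not called (log2 fold change -0.56, adjusted p = 0.0138), and Csf2rb was at 609 to 757 CPM in control and 313 to 466 CPM at 14 d, lower under TMM but not under all 4 scalings (log2 fold change -0.83, adjusted p = 0.000318).

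Of 31 genes of lipid uptake, storage and efflux, the main task of these cells, 2 rose (1 without 3 d replicate 2) and 10 fell. Cidec (chr6:113424634-113435760), which encodes a lipid droplet protein that enlarges droplets, was at 428, 284, 497 and 594 CPM in the control libraries and 27.2, 44.7 and 26.5 CPM in the 14 d libraries. For Cidec the log2 fold change was -3.77 ± 0.42 SE, with an edgeR adjusted p of 3.42e-05. Abcg1 (chr17:31057675-31117988), the cholesterol exporter whose loss fills alveolar macrophages with lipid, was at 1655, 1456, 1924 and 1984 CPM in the control libraries and 286, 396 and 241 CPM in the 14 d libraries. For Abcg1 the log2 fold change was -2.51 ± 0.26 SE, with an edgeR adjusted p of 3.63e-06. Fabp1 (chr6:71199827-71205023), which encodes a fatty acid carrier best known from liver, was at 148, 101, 165 and 120.4 CPM in the control libraries and 11.7, 7.43 and 5.07 CPM in the 14 d libraries. For Fabp1 the log2 fold change was -4.04 ± 0.82 SE, with an edgeR adjusted p of 0.00279. In each of the 3 genes all 14 d libraries were below all control libraries. Cd36, the fatty acid translocase, was at 222 to 396 CPM in control and 43.2 to 91.3 CPM at 14 d (log2 fold change -2.29, adjusted p = 9.65e-05). Nceh1, which encodes a hydrolase of cholesteryl esters, was at 637 to 768 CPM in control and 137 to 199 CPM at 14 d (log2 fold change -2.08, adjusted p = 2.62e-06), Plin2, the main droplet coat gene, was at 1391 to 1731 CPM in control and 472 to 719.7 CPM at 14 d (log2 fold change -1.46, adjusted p = 9.58e-06), and Npc1, which moves cholesterol out of lysosomes, was at 299 to 375 CPM in control and 124 to 172 CPM at 14 d (log2 fold change -1.22, adjusted p = 1.19e-05). Of the 2 genes of the list that rose, Apoe is described above and Apoc1, another apolipoprotein gene, was at 5.17 to 6.44 CPM in control and 6.76 to 13.5 CPM at 14 d (log2 fold change 0.79, adjusted p = 0.0164). The Apoc1 call was lost without 3 d replicate 2 or 14 d replicate 1.

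The promoter window of Fabp1 held the letters of a direct repeat with 1 base between, the form of element bound by PPARs (AGGNCA, any 1 base and AGGNCA again, searched on both strands in 250 bases). The match is on the reverse strand. It lies 67 to 55 bases before the RefSeq start and is shown in capitals.
Fabp1 (chr6:71199792-71199844, plus strand): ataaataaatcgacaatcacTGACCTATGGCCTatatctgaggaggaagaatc
Of the 43 genes of lipid handling and fatty acid oxidation with a RefSeq promoter this was the only 1 with a match (2.33%), against 0.338% of all promoters.

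Of 28 genes of fatty acid oxidation none rose and 6 fell. Acaa1b, a peroxisomal thiolase gene, was at 243, 115, 244 and 236 CPM in the control libraries and 10.8, 14.5 and 13.4 CPM in the 14 d libraries. For Acaa1b the log2 fold change was -4.02 ± 0.68 SE, with an edgeR adjusted p of 0.00105. Cpt1a, the gate of fatty acids into mitochondria, was at 328 to 471 CPM in control and 128 to 178 CPM at 14 d (log2 fold change -1.47, adjusted p = 3e-05). Acadm, the medium-chain dehydrogenase, was at 77.8 to 94.05 CPM in control and 27.2 to 44.5 CPM at 14 d (log2 fold change -1.32, adjusted p = 9.62e-06), and the peroxisomal enzyme gene Ehhadh was at 22.3 to 29.4 CPM in control and 5.62 to 10.96 CPM at 14 d (log2 fold change -1.74, adjusted p = 2.51e-05). Acot1, which encodes a cytosolic thioesterase of acyl-CoA and is outside the list, was at 67.8, 48.2, 67.4 and 78.7 CPM in the control libraries and 3.89, 8.19 and 4.57 CPM in the 14 d libraries. For Acot1 the log2 fold change was -3.54 ± 0.45 SE, with an edgeR adjusted p of 7.96e-05. A further 11 genes of the oxidation list were lower under TMM but not under all 4 scalings. Of 16 genes of fatty acid synthesis 5 rose (8 without control replicate 2) and 1 fell (2 without control replicate 1). Acaca, the acetyl-CoA carboxylase that makes malonyl-CoA, was at 42.04, 53.7, 51.2 and 46.9 CPM in the control libraries and 94.9, 85.2 and 133 CPM in the 14 d libraries. For Acaca the log2 fold change was 1.11 ± 0.16 SE, with an edgeR adjusted p of 4.54e-05. Me1, a source of NADPH, was at 1.99 to 4.33 CPM in control and 21.1 to 33.6 CPM at 14 d (log2 fold change 3.17, adjusted p = 1.02e-06), Acss2, which activates acetate, at 11.5 to 15.4 CPM in control and 38.4 to 67.96 CPM at 14 d (log2 fold change 1.91, adjusted p = 1.65e-06), Scd1, the stearoyl-CoA desaturase, at 26.8 to 51.3 CPM in control and 69.6 to 92.8 CPM at 14 d (log2 fold change 1.15, adjusted p = 0.00019), and Acsl3, an acyl-CoA synthetase, at 5.37 to 10.3 CPM in control and 22.3 to 46.7 CPM at 14 d (log2 fold change 2.18, adjusted p = 1.9e-05). The elongase gene Elovl5 fell and was at 102 to 149.6 CPM in control and 37.4 to 55.2 CPM at 14 d (log2 fold change -1.41, adjusted p = 1.37e-05). None of 23 sterol synthesis genes rose or fell, although 3 were lower under TMM.

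**Figure D5:**
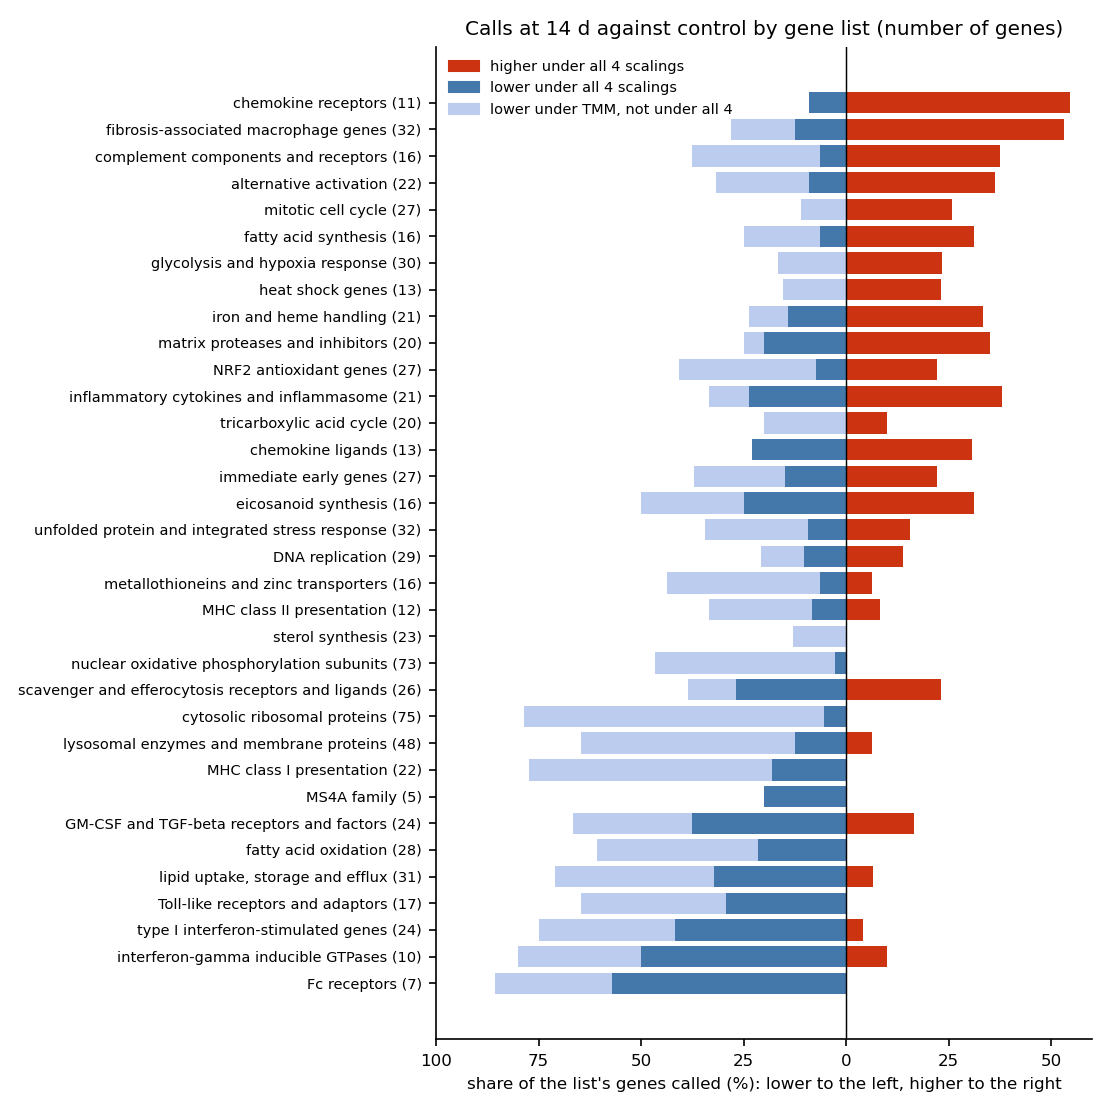
Share of the genes of each functional list that were called lower (left of 0) and higher (right of 0) at 14 d, in percent, with the number of genes of the list beside its name. Dark bars are genes called under all 4 scalings and pale bars those called under TMM but not under all 4, so the ribosomal and oxidative phosphorylation lists are almost wholly pale.

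Of 24 genes stimulated by type I interferon 1 rose and 10 fell, with a median log2 fold change of -1.07 under TMM and -0.51 with factors from the abundant genes. The list held 42 genes, and those under 10 CPM in both groups were left out. Among these were Ifit1, Ifit2, Ifit3, Isg15, Rsad2, Mx1, Mx2 and Usp18. Ifi44, Mx2 and Ifit3b, left out with few reads, had pooled ratios of 10.2, 3.87 and 2.48 between 14 d and control. The directions of the others left out are not given here. Of all genes tested 39.4% rose. Stat2, which encodes a signal transducer of the receptor, was at 31.98 to 35.98 CPM in control and 9.97 to 18.3 CPM at 14 d (log2 fold change -1.19, adjusted p = 9.03e-05). Trim25, a ubiquitin ligase gene of the RNA-sensing pathway, was at 192 to 224 CPM in control and 68.3 to 76.4 CPM at 14 d (log2 fold change -1.53, adjusted p = 1.95e-05) and Ifih1, which encodes the RNA sensor MDA5, was at 41.1 to 48.5 CPM in control and 12.8 to 18.7 CPM at 14 d (log2 fold change -1.47, adjusted p = 9.81e-06). Trim30a was at 57.6 to 62.4 CPM in control and 7.61 to 29.4 CPM at 14 d (log2 fold change -1.47, adjusted p = 0.00243). The gene that rose was Oasl2, at 2.05, 5.17, 3.998 and 2.59 CPM in the control libraries and 23.2, 19.9 and 10.99 CPM in the 14 d libraries. For Oasl2 the log2 fold change was 2.39 ± 0.34 SE, with an edgeR adjusted p of 3.34e-05. Bst2, the tetherin gene, was at 40.1 to 64.8 CPM in control and 21.8 to 27.5 CPM at 14 d, lower under TMM but not under all 4 scalings, and Oas1a was at 24.4 to 46.3 CPM in control and 17.6 to 27.1 CPM at 14 d with overlapping groups and was not called. A list of interferon-gamma inducible GTPases and their regulators held 23 genes, and those under 10 CPM in both groups were left out. Left-out genes with few reads went both ways. Nos2, Ido1, Iigp1, Gbp10 and Tgtp1 had pooled ratios of 19.3, 12.1, 4.62, 4.19 and 2.98, and Tgtp2 and Gbp6 of 0.698 and 0.0998. Of the 10 genes kept 1 rose and 5 fell. Those that fell included Gbp2, at 24.5 to 35.1 CPM in control and 6.93 to 10.96 CPM at 14 d (log2 fold change -1.67, adjusted p = 9.21e-06), and Gbp8, at 7.98 to 16.1 CPM in control and 0.338 to 2.45 CPM at 14 d (log2 fold change -2.94, adjusted p = 0.00115). The gene that rose was Socs1, which encodes no GTPase but a feedback inhibitor of interferon signalling, at 1.46 to 4.49 CPM in control and 9.96 to 25.02 CPM at 14 d (log2 fold change 2.61, adjusted p = 0.000882).

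The core of the interferon-stimulated response element (GAAA, any 2 bases and GAAA again, both strands, 250 bases) was present in the promoter windows of 4 of the 17 interferon-stimulated genes with a RefSeq promoter (23.5%), against 2.98% of all promoters. The 4 are shown with the match in capitals, and in Bst2 and Oas1a the capitals cover 2 overlapping matches.
Stat2 (chr10:128270256-128270305, plus strand): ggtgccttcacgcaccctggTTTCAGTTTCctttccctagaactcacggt
Trim30a (chr7:104465200-104465249, minus strand): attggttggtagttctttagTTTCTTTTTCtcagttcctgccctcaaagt
Bst2 (chr8:71537567-71537622, minus strand): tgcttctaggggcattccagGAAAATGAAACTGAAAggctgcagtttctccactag
Oas1a (chr5:120907526-120907565, minus strand): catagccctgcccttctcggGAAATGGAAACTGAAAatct
Stat2 and Trim30a fell and the other two did not pass all 4 scalings. The matches lie 222 to 213, 36 to 27, 130 to 115 and 20 to 5 bases before the start.

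Of 12 MHC class II genes 1 rose (0 without 14 d replicate 2) and 1 fell. H2-Ab1, a class II chain, was at 277, 809, 1043 and 316 CPM in the control libraries and 756, 676 and 469 CPM in the 14 d libraries and Cd74, the invariant chain, was at 649.5 to 2772 CPM in control and 1223 to 1480 CPM at 14 d. Both varied among the control libraries and neither was called. H2-DMa, which encodes a peptide-loading chain, fell and was at 358 to 479.6 CPM in control and 134 to 179.9 CPM at 14 d (log2 fold change -1.29, adjusted p = 4.82e-05), and the gene that rose was the costimulatory Cd86, at 7.53 to 11.5 CPM in control and 8.12 to 30.2 CPM at 14 d with overlapping groups (log2 fold change 1.04, adjusted p = 0.0167). Of 22 MHC class I genes none rose and 4 fell (1 without 14 d replicate 3). B2m, the shared light chain, was at 1404 to 1793 CPM in control and 613 to 771 CPM at 14 d (log2 fold change -1.17, adjusted p = 1.4e-05).

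Of 17 Toll-like receptor and adaptor genes none rose and 5 fell (3 without control replicate 1). Tlr2, the receptor of bacterial lipoproteins, was at 566 to 756 CPM in control and 164 to 353 CPM at 14 d (log2 fold change -1.46, adjusted p = 0.000323). Tlr4, the receptor of endotoxin, was at 102 to 141 CPM in control and 26.2 to 81.5 CPM at 14 d (log2 fold change -1.15, adjusted p = 0.00316), and Tlr5, the receptor of flagellin, was at 10.4 to 24.03 CPM in control and 0 to 3.02 CPM at 14 d (log2 fold change -3.898, adjusted p = 0.00146). Of 7 Fc receptor genes none rose and 4 fell. Fcgrt, which encodes the recycling receptor of immunoglobulin G, was at 421 to 626 CPM in control and 105 to 159 CPM at 14 d (log2 fold change -2.02, adjusted p = 0.000238), Fcgr4 was at 174 to 209.8 CPM in control and 42.6 to 62 CPM at 14 d (log2 fold change -1.91, adjusted p = 9.72e-07) and Fcgr1, the high-affinity receptor, was at 66.8 to 97.1 CPM in control and 17.9 to 38.6 CPM at 14 d (log2 fold change -1.47, adjusted p = 0.00493).

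Of 75 cytosolic ribosomal protein genes 59 were lower under TMM and 4 under all 4 scalings (9 without 14 d replicate 2). Their median log2 fold change was -0.84 under TMM and -0.28 with factors from the abundant genes. Rps6 was among those that fell, at 628 to 675 CPM in control and 209.8 to 301 CPM at 14 d (log2 fold change -1.28, adjusted p = 8.63e-06). Of 73 nuclear genes of oxidative phosphorylation 34 were lower under TMM and 2 under all 4 scalings (4 without 14 d replicate 1), Cox7a2l, a factor of respiratory supercomplexes, being 1 of them at 180 to 253 CPM in control and 64.2 to 95.8 CPM at 14 d (log2 fold change -1.47, adjusted p = 3.04e-05). Mitochondrial transcripts made up 1.76% to 2.05% of counts in control and 2.33% to 3.95% at 14 d. Of 20 genes of the tricarboxylic acid cycle 2 rose and none fell.

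Of 30 genes of glycolysis and the hypoxia response 7 rose and none fell. The glucose transporter genes Slc2a1 and Slc2a3 were at 21.8 to 70.7 CPM in control and 80.1 to 106 CPM at 14 d (log2 fold change 1.32, adjusted p = 0.00836) and at 2.58 to 3.19 CPM in control and 12.8 to 18.6 CPM at 14 d (log2 fold change 2.398, adjusted p = 6.13e-06). Egln3, which encodes an oxygen-sensing hydroxylase that hypoxia itself induces, was at 0.152 to 0.786 CPM in control and 8.12 to 25.7 CPM at 14 d (log2 fold change 5.39, adjusted p = 6.73e-07). Pkm, the pyruvate kinase gene, was at 901 to 1202 CPM in control and 1384 to 1762 CPM at 14 d and did not pass the fold change of 1.5 (log2 fold change 0.55, adjusted p = 0.00634). Of 27 genes of the mitotic cell cycle 7 rose and none fell. Plk1, a mitotic kinase gene, was at 12.2 to 15.8 CPM in control and 39.3 to 54.3 CPM at 14 d (log2 fold change 1.65, adjusted p = 3.5e-05) and Ccnb2, a mitotic cyclin gene, was at 19.8 to 26.6 CPM in control and 49.5 to 57.8 CPM at 14 d (log2 fold change 1.24, adjusted p = 0.000169). Of 29 DNA replication genes 4 rose (2 without 3 d replicate 1) and 3 fell, near the shares of all 9109 genes (12.3% and 10.3%). Tyms, which makes thymidylate, rose and was at 13.6 to 20.3 CPM in control and 38.2 to 77.3 CPM at 14 d (log2 fold change 1.67, adjusted p = 4.28e-05), whereas Pcna, the replication clamp, fell and was at 224 to 259.5 CPM in control and 87.9 to 118 CPM at 14 d (log2 fold change -1.21, adjusted p = 4.8e-05), as did E2f1 and the licensing factor gene Cdt1, at 58.95 to 80.1 CPM in control and 24.2 to 30.3 CPM at 14 d and 43.2 to 63.1 CPM in control and 15.9 to 23.3 CPM at 14 d. Ccnd2, which encodes the cyclin D2 of the entry into the cycle, was at 327, 321, 368 and 351 CPM in the control libraries and 50.4, 60.2 and 44.97 CPM in the 14 d libraries (log2 fold change -2.72 ± 0.15 SE, edgeR adjusted p = 3.15e-08), and its groups were far apart.

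Of 48 lysosomal genes 3 rose (0 without control replicate 4) and 6 fell, and a further 25 were lower under TMM but not under all 4 scalings. The share that fell was near the 10.3% of all 9109 genes. Hexa, a hexosaminidase subunit, was at 896 to 1052 CPM in control and 322 to 411 CPM at 14 d (log2 fold change -1.43, adjusted p = 2.41e-06). Those that rose included Ctsk and Ctsl, genes of lysosomal proteases. Ctsl was at 268 to 399 CPM in control and 381 to 569.7 CPM at 14 d with overlapping groups (log2 fold change 0.65, adjusted p = 0.00869), and the calls of Ctsl and Ctsk were lost in 6 and 8 of 10 fits that left out a library.

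Of 21 genes of iron and heme handling 7 rose and 3 fell. Slc40a1, the iron exporter ferroportin, was at 6.03 to 6.84 CPM in control and 14.4 to 25.7 CPM at 14 d (log2 fold change 1.67, adjusted p = 0.000278) and Hmox1, which breaks down heme, was at 153 to 329.7 CPM in control and 381 to 446 CPM at 14 d (log2 fold change 0.87, adjusted p = 0.00204). Slc11a1, which pumps metal ions out of phagosomes, was at 3.35 to 4.38 CPM in control and 40.5 to 54.8 CPM at 14 d (log2 fold change 3.68, adjusted p = 1.03e-05), and Hp, the gene of haptoglobin, which granulocytes also store, was at 6.16 to 11.1 CPM in control and 48.7 to 156 CPM at 14 d (log2 fold change 3.77, adjusted p = 1.99e-05). Ncoa4, the receptor for the autophagy of ferritin, fell and was at 314 to 389.9 CPM in control and 80.6 to 116 CPM at 14 d (log2 fold change -1.84, adjusted p = 1.79e-05). The ferritin genes Fth1 and Ftl1, at 7773 to 9745 CPM in control and 6021 to 8840 CPM at 14 d and at 9941 to 13460 CPM in control and 8119 to 12230 CPM at 14 d, were not called. Of 27 targets of the antioxidant factor NRF2 6 rose and 2 fell (4 without 14 d replicate 1). Slc7a11, the cystine importer, was at 10.9 to 22.2 CPM in control and 51.3 to 69.5 CPM at 14 d (log2 fold change 1.95, adjusted p = 4.54e-06), and Gstm1, a glutathione transferase, fell and was at 244 to 286 CPM in control and 76.2 to 124 CPM at 14 d (log2 fold change -1.44, adjusted p = 9.1e-05). Of 16 metallothionein and zinc transporter genes 1 rose (2 without control replicate 3) and 1 fell (2 without control replicate 1).

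Stress genes changed in both directions. Of 32 genes of the unfolded protein and integrated stress response 5 rose and 3 fell, near the shares of all 9109 genes (12.3% and 10.3%). Hspa5, the main chaperone of the endoplasmic reticulum, was at 1164, 1419, 1262 and 1238 CPM in the control libraries and 2705, 1959 and 3989 CPM in the 14 d libraries. For Hspa5 the log2 fold change was 1.18 ± 0.24 SE, with an edgeR adjusted p of 0.000651. Xbp1, which encodes a transcription factor of the response, was at 499 to 693 CPM in control and 164 to 263 CPM at 14 d (log2 fold change -1.45, adjusted p = 1.76e-05), and Dnajb9, a cochaperone of Hspa5, was at 188 to 233 CPM in control and 53.8 to 67.9 CPM at 14 d (log2 fold change -1.78, adjusted p = 8e-07). The chaperone thus rose while the other two fell. Of 13 heat shock genes 3 rose (1 without 14 d replicate 3) and none fell. Hspb1, a small heat shock protein, was at 2.82 to 4.18 CPM in control and 27.4 to 72.5 CPM at 14 d (log2 fold change 3.81, adjusted p = 2.05e-06). Of 27 immediate early genes 6 rose and 4 fell (7 without control replicate 3). The AP-1 subunit genes moved apart, Fosl1 at 4.195 to 8.21 CPM in control and 55.7 to 156 CPM at 14 d (log2 fold change 3.92, adjusted p = 1.18e-05) and Fos at 829 to 1214 CPM in control and 294 to 408 CPM at 14 d (log2 fold change -1.41, adjusted p = 3.84e-05).

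Of 26 scavenger and efferocytosis genes 6 rose and 7 fell. Axl, which with Mertk belongs to the TAM receptors for dying cells, was at 1741, 1482, 2029 and 1841 CPM in the control libraries and 539, 715 and 539 CPM in the 14 d libraries. For Axl the log2 fold change was -1.57 ± 0.24 SE, with an edgeR adjusted p of 6.98e-05. Pros1, which encodes their ligand protein S, was at 274 to 343 CPM in control and 52.8 to 91.7 CPM at 14 d (log2 fold change -2.096, adjusted p = 1.57e-06). Tyro3, the remaining receptor of the family, rose from low level, at 0.685 to 1.14 CPM in control and 5.797 to 19.9 CPM at 14 d (log2 fold change 3.902, adjusted p = 2.19e-06), as did the integrin chain Itgb3, at 0.398 to 1.52 CPM in control and 9.83 to 15.2 CPM at 14 d (log2 fold change 3.498, adjusted p = 2.66e-06). Of 5 MS4A genes none rose (1 without 14 d replicate 3) and 1 fell.

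By the rule for single genes (called, no overlap between groups, at least 50 CPM in the higher group), the 15 largest rises and 15 largest falls were taken. Most are named above. Jchain, the joining chain of polymeric immunoglobulins and a plasma cell product, had the largest fall, but its control libraries ranged from 3.25 to 212 CPM and its 14 d libraries from 1.15 to 2.87 CPM (log2 fold change -5.19 ± 1.48 SE, edgeR adjusted p = 0.0152). The Jchain call was lost without 14 d replicate 1 (adjusted p = 0.0523). The 8 B cell markers summed to 144 to 935 CPM in control and 236 to 400 CPM at 14 d.

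The neuropeptide galanin is encoded by Gal (chr19:3409915-3414544), which was at 64.2, 65.2, 71.8 and 77.1 CPM in the control libraries and 2.88, 3.403 and 2.198 CPM in the 14 d libraries. For Gal the log2 fold change was -4.598 ± 0.28 SE, with an edgeR adjusted p of 9.63e-08. Cpne5, a copine gene of calcium-dependent membrane binding, was at 247, 188, 277 and 282 CPM in the control libraries and 8.498, 19.7 and 14.03 CPM in the 14 d libraries. For Cpne5 the log2 fold change was -4.14 ± 0.43 SE, with an edgeR adjusted p of 2.61e-05. Patj, which encodes a scaffold of tight junctions, was at 86.7 to 164 CPM in control and 11.7 to 16.6 CPM at 14 d (log2 fold change -3.14, adjusted p = 1.42e-05). Those 3 genes fell without overlap between groups. Rnase6, an antimicrobial ribonuclease gene, was at 56.6 to 93.5 CPM in control and 7.44 to 11.96 CPM at 14 d (log2 fold change -2.89, adjusted p = 7.48e-06), and Fpr2, which encodes a formyl peptide receptor, was at 234 to 342 CPM in control and 36.4 to 43.9 CPM at 14 d (log2 fold change -2.85, adjusted p = 0.00475). Cdc42ep3, an effector of the GTPase Cdc42, was at 192 to 253 CPM in control and 26.9 to 38.2 CPM at 14 d (log2 fold change -2.77, adjusted p = 7.9e-06), Sec14l2, a lipid transfer protein gene, at 46.5 to 72.5 CPM in control and 8.28 to 9.51 CPM at 14 d (log2 fold change -2.75, adjusted p = 7.22e-07), and Gpr155, a lysosomal cholesterol sensor gene, at 51.7 to 77.5 CPM in control and 8.45 to 13.5 CPM at 14 d (log2 fold change -2.67, adjusted p = 0.000245). Of the 193 genes whose values were looked up for the text, 49 share exon bases with another annotated gene, 14 of them on the same strand. Whether counting used strand is not given in the sources used here, so reads of such pairs, for example Fpr2 with Fpr3, Gbp8 with Gbp4 and Serpinb2 with Serpinb10, may be split or shared.

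Levels were also ranked per kilobase of exon. Of the 10 highest genes in control, Lyz2 (lysozyme), Chil3, Ftl1, Rplp1, Ctsd (cathepsin D), Actb and Fth1 were also among the 10 highest at 14 d. Lyz2 was at 19690, 21670, 22250 and 20350 CPM in the control libraries and 10190, 11090 and 8080 CPM in the 14 d libraries (log2 fold change -1.101, adjusted p = 2.6e-05) and was lower under TMM but not under all 4 scalings, as were Ctsd, Rplp1 and Eef1a1 (elongation factor 1 alpha). Spp1 moved from rank 93 per kilobase in control to rank 7 at 14 d, S100a9 from 6612 to 16, Retnla from 8677 to 86 and Arg1 from 8480 to 108. Ccl6 moved from 5 to 13 and Fabp1 from 210 to 2488. Psap, which encodes the lysosomal saposin precursor, was among the 10 highest at 14 d and was not called (log2 fold change -0.35, adjusted p = 0.05). Gm10800 also reached the 10 highest at 14 d, with 542, 5204 and 647 CPM, and was not called (log2 fold change 1.37, adjusted p = 0.415).

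The 14 d libraries were also compared with the 3 d libraries, so both comparisons share the 14 d libraries. The 3 d libraries held 2 to 3 counts of Y-linked genes and 1747 to 2597 of Xist. Sex and group therefore cannot be told apart in this comparison either. Of the 9109 genes 967 (10.6%) were higher and 784 (8.61%) lower under all 4 scalings, against 36.3% and 5.25% of all genes tested. Under TMM 967 were higher and 3318 lower, against 36.3% and 20.0%. Retnla was at 33.8, 2.02 and 46.6 CPM at 3 d and 2.79 higher at 14 d on the log2 scale (edgeR adjusted p = 0.0478). Arg1 was at 10.96, 3.88 and 33.9 CPM at 3 d (log2 fold change from 3 d 5.23, edgeR adjusted p = 0.00184). C1qb was at 7.67, 3.88 and 2.61 CPM (log2 fold change from 3 d 5.09, edgeR adjusted p = 0.000452) and Prg2 at 0.215, 0.698 and 0.313 CPM at 3 d (log2 fold change from 3 d 7.14, edgeR adjusted p = 0.00045). Spp1 had already reached 2373, 799 and 3206 CPM at 3 d and its 14 d level was not called different (log2 fold change from 3 d 0.55, edgeR adjusted p = 0.52). Gal was at 31.2, 50.05 and 22.4 CPM at 3 d and lower at 14 d (log2 fold change from 3 d -3.59, edgeR adjusted p = 2.13e-06), and Cidec was at 114, 267 and 108 CPM (log2 fold change from 3 d -2.31, edgeR adjusted p = 0.000938). Fabp1 was at 11.9, 75.04 and 10.9 CPM (log2 fold change from 3 d -2.01, edgeR adjusted p = 0.0595) and Ear1 at 52.2, 494 and 69.97 CPM at 3 d (log2 fold change from 3 d -1.98, edgeR adjusted p = 0.067), and neither was called. In both of these genes 3 d replicate 2 stood nearer to the controls than the other two 3 d libraries.

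Lung monocytes of the same model, sorted and counted separately, were used to test whether the 14 d change differed between the cell types. The macrophage change enters this difference, so sex and group cannot be told apart in it either. The sex of the monocyte libraries is not given here. The difference between the 14 d change in macrophages and that in monocytes was called higher for 614 of the 9109 genes (6.74%) and lower for 857 (9.41%) under 3 scalings, against 16.9% and 3.86% of 26692 genes tested. Under TMM 614 were higher and 4443 lower, against 16.9% and 19.9%. Prg2, Cd177 and Itgam had rises in the macrophage libraries that exceeded those in monocytes. The monocytes were sorted for CD11b, which Itgam encodes, and Prg2 and Cd177 are among the granulocyte genes above. Which cells held these transcripts was not tested. The log2 fold change of Prg2 in monocytes was -0.67 and the difference was 7.84 ± 1.83 SE, adjusted p = 0.00297. That of Cd177 was 0.021 with a difference of 7.14 ± 0.88 SE, adjusted p = 1.68e-05, and that of Itgam was 0.013 with a difference of 5.15 ± 0.53 SE, adjusted p = 1.31e-06.

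Other genes had values of the same sign in both cell types. Arg1 had a log2 fold change of 7.73 in monocytes, and the difference was -0.15 ± 1.64 SE, adjusted p = 0.97. For C1qa the monocyte value was 4.68 and the difference 1.05 ± 0.98 SE, adjusted p = 0.412, whereas C1qb and C1qc rose more in macrophages, with differences of 2.62 ± 0.97 SE, adjusted p = 0.0442 and 2.35 ± 0.89 SE, adjusted p = 0.0461. Retnla had a log2 fold change of 3.83 in monocytes with a difference of 4.65 ± 1.78 SE, adjusted p = 0.0501, which did not pass. Falls were tested in the same way. Acot1 and Fpr2 fell in macrophages and had monocyte values of 0.95 and 0.87, with differences of -4.803 ± 0.98 SE, adjusted p = 0.00124 and -4.02 ± 0.58 SE, adjusted p = 4.66e-05. Cdc42ep3, Gpr155 and Rnase6 also fell more in macrophages. For Cidec the monocyte value was -5.09 and the difference did not pass (1.004 ± 1.07 SE, adjusted p = 0.473).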

How the data were processed

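RNA from alveolar macrophages sorted in the control, 3 d and 14 d groups was sequenced by the authors from oligo(dT)-selected NEBNext Ultra libraries as paired-end reads on 1 lane of an Illumina HiSeq. The deposited tables hold raw counts per gene, 1 column per library. The submitters' processing notes name STAR 2.7.2c and 2.7.3a, featureCounts 1.6.3, DESeq2 1.26.0 and 1.28.1 and the GRCm38/mm10 build. The use of strand in counting is not given in the sources used here. Gene positions and exon lengths are those of GENCODE vM21 (GRCm38).

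Counts were fitted with edgeR 4.0.16 in R 4.3.3 (quasi-likelihood, TMM normalization, filterByExpr, robust dispersion) over all 10 macrophage libraries. The interaction with monocytes was fitted over all 22 libraries. A gene was called at a Benjamini-Hochberg adjusted p under 0.05 (two-sided) and a fold change above 1.5. CPM was computed on the library total multiplied by its TMM factor, also for the 10 CPM rule and the sums of marker genes. Depth per library ranged from 4610720 to 17074863 counts, and counting intervals cover counting error only. No library was a repeat of another. Alternatives comprised DESeq2 1.42.0, limma 3.58.1, other scalings and filters, and leaving out each library. The genes named were the 15 largest called rises and falls without overlap at 50 CPM or more, the 10 highest per kilobase in each group, and examples of the gene lists. Gene lists, markers and the membership rule were chosen with earlier results of these data known, so they are no independent evidence. Some genes that these rules named are not reported here.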

Additional observations from a re-analysis of the deposited data

Results flagged for a closer look

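In the control group, 1 library stood apart from the other 3 for 13 of 178 genes examined, and chance alone would mark about 1 in 20 groups. Control replicate 2 was the highest for Spp1 at 1760 CPM (next 502), Il1b at 250.2 CPM (68.6), Igf1 at 46.1 CPM (21.7), Mmp14 at 23.3 CPM (5.24), Acsl3 at 10.3 CPM (6.09), Arg1 at 5.47 CPM (1.77) and C3ar1 at 2.28 CPM (0.753). The same library was the lowest for Cox7a2l at 180 CPM (next 240.7), Acaa1b at 115 CPM (236) and Acadm at 77.8 CPM (91.3). Control replicate 3 was the highest for S100a9 at 6.29 CPM (0.89), Mmp9 at 2.75 CPM (0.548) and C1qc at 1.44 CPM (0.456).

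By the interaction test, the 14 d change differed between macrophages and monocytes for 15 of the 29 reported genes among those with the largest changes. Such differences were common. Under TMM the same test called 614 of the 9109 genes higher and 4443 lower, against 16.9% and 19.9% of all genes tested. The 29 were chosen by their change in macrophages, which enters the difference. The difference (macrophages minus monocytes, log2) is given with the monocyte change in brackets. It was above 0 for Prg2 at 7.84 (-0.67), Cd177 at 7.14 (0.021), Retnlg at 6.22 (1.37), S100a9 at 5.22 (2.09), Itgam at 5.15 (0.013), Il1r2 at 4.76 (1.41), Mmp9 at 4.66 (1.21), Alox15 at 3.22 (4.13), C1qb at 2.62 (3.90) and C1qc at 2.35 (4.27). It was below 0 for Acot1 at -4.80 (0.95), Fpr2 at -4.02 (0.87), Cdc42ep3 at -2.88 (-0.19), Gpr155 at -2.27 (-0.71) and Rnase6 at -1.84 (-1.35).

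Outside the genes of the report, the 764 olfactory and vomeronasal receptor genes reached 1015 CPM in 1 of the 14 d libraries (highest control library 151 CPM), and 4 Y-linked genes reached 966 counts (highest control library 3).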

How the results depend on the processing

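Over the 192 gene results recomputed under each setting no call changed sign, and per setting 178 to 191 kept their call and direction. Counts of calls at 14 d against control depended on scaling and on the genes kept. Against 1116 higher and 3792 lower calls, library sizes gave 1864 and 1379, upper quartiles 1728 lower, factors from genes above a log2 CPM of 5 gave 2245 and 940, and a fit of the 9109 genes alone gave 1860 and 1367. Filtering at an average log2 CPM over 1 gave 1859 lower, edgeR's test against a fold of 1.5 gave 2225 lower, and libraries thinned to the smallest total, added after the data had been seen, gave 2245 lower. Over genes at 10 CPM in both groups 425 were higher, at 50 CPM 274 were higher and 2092 lower, and with a mean of 10 CPM over the 7 libraries 738 were higher. Calls held under all 4 scalings left 940 lower. Against 3 d (967 higher, 3318 lower), library sizes gave 1748 and 951, factors from abundant genes 1949 and 786, and all 4 scalings 784 lower. For the difference from monocytes (614 higher, 4443 lower), DESeq2 gave 1059 and 2619, library sizes 1399 and 1309, factors from abundant genes 1836 and 857, and all scalings 857 lower. The cause was not tested.

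Leaving out 1 library at a time gave 924 to 1120 higher and 3571 to 4965 lower against control, of which 791 to 1080 lower held under all 4 scalings. The ranges were 748 to 1006 and 3004 to 4620 against 3 d, and 507 to 639 and 3836 to 4172 for the difference from monocytes, where each 14 d macrophage library was left out in turn. DESeq2 gave 1337 higher and 2740 lower against control. The numbers in the labels do not pair the samples: deviations of same-numbered libraries correlated at 0.0631, -0.0558 and -0.0887. A replicate block gave 1076 higher and 3752 lower against control and, for the difference from monocytes, 523 and 3856. The 14 d libraries limit depth, since 3 counts correspond to 0.378 to 0.507 CPM there.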
